A study of Arabidopsis thaliana with 20 samples.

Results

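This comparison set Atss3 leaves against wild-type (WT) leaves in the dark. Its members are the 12 arrays of the 20 in the study that were harvested after the lights went off, 6 per genotype, chosen by genotype, harvest time and replicate number in the sample titles. Atss3 is an Arabidopsis thaliana mutant in starch synthase 3, and the plants of both genotypes grew under 8 h of light and 16 h of dark. Leaves were taken 8.5, 12 and 16 h after the lights came on, which is 0.5, 4 and 8 h into the dark. Each array measured total RNA of photosynthetically active rosette leaves pooled from 16 plants that were 6 weeks old. Plants were grown and harvested in 2 independent runs, which the replicate numbers 1 and 2 stand for, so each genotype had 1 array per time and run.

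Leaf starch is built in chloroplasts during the day and degraded at night, when its sugars feed respiration, growth and export to other organs. Starch synthases lengthen the glucan chains of the granule, and starch synthase 3 is one of several that act in Arabidopsis leaves. When carbon runs short in the dark, leaves are known to switch on genes of autophagy and of amino acid breakdown, under the control of the SnRK1 kinase, an energy sensor.

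Values are MAS5 signals, 1 for each probe set (the short DNA probes on the array that together read 1 transcript or a few close ones), on a linear scale that the authors had set to a common mean. Differences are log2 signal in Atss3 minus WT, fitted in limma with time and run as covariates over 13759 probe sets that exceeded the 40th percentile of their array on at least 6 of the 12 arrays. A probe set was called when its Benjamini-Hochberg adjusted p over these 13759 was under 0.05. Of them, 7444 are tied to 1 gene. Arrays of the same genotype and time correlated at 0.95 to 0.969 between the runs, and how precise a value can be is limited by how few arrays there are. The 3 measured mesophyll markers (LHCB4.1, LHCB4.2 and PSAE-1, of 8 listed) summed to signals of 33800 to 56500 in WT and 33900 to 59600 in Atss3. The 1 measured root marker of 4 listed, PYK10, stood at 162 to 554 in WT and 177 to 696 in Atss3. Median signals of the arrays were 157 to 178. SWEET11, the 1 measured vasculature marker of 5, stood at 3820 to 8260 and 4510 to 6930. The 2 measured guard cell markers of 5 summed to 765 to 1800 and 699 to 2100. SS3 itself had no probe set with its name in the annotation used, which leaves 8730 probe sets unlisted. Whether one of those reads SS3 was not determined, and the mutant label was therefore not checked through the mutated gene. In whole leaves, fewer cells of a type and less RNA per cell cannot be told apart.

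At night, 2 probe sets passed the threshold, 1 higher and 1 lower in Atss3, which is 0.0145% of those tested. The higher one was QQS (AT3G30720), Qua-Quine Starch, a gene found only in Arabidopsis thaliana that is known for its link to leaf starch content. In WT the QQS signal was 272 and 208 at 8.5 h in runs 1 and 2, 523 and 547 at 12 h, and 303 and 470 at 16 h. In Atss3 it was 2370 and 2420 at 8.5 h, 3950 and 3370 at 12 h, and 5820 and 5480 at 16 h. Every Atss3 array stood above every WT array, and the highest values of Atss3 came at 16 h while those of WT came at 12 h. The fitted difference over the night was 3.33 (SE 0.182, limma adjusted p 1.18e-05), a 10.1-fold higher signal. The difference was 3.44 (SE 0.266) in run 1 and 3.23 (SE 0.266) in run 2, and these did not differ beyond their errors (limma adjusted p 0.91). By time it was 3.33 at 8.5 h, 2.77 at 12 h and 3.9 at 16 h (SE 0.226 each), and the test for a change between times was not passed (limma adjusted p 0.497). Because the study of these plants had drawn attention to QQS before, its values here are not independent evidence.

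The lower one was the probe set 262809_at, which has no gene name in the annotation used. Which gene it reads was not determined. Its signals in WT ran from 304 to 919 with a median of 540, and in Atss3 from 93.6 to 140 with a median of 123. The genotypes did not overlap, and 1 of the 6 Atss3 arrays lay at or under its array's 40th percentile. The fitted difference was -2.18 (SE 0.171, limma adjusted p 0.00031), which is 4.53-fold lower in Atss3. It was -2.47 (SE 0.219) in run 1 and -1.89 (SE 0.219) in run 2.

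**Figure D1:**
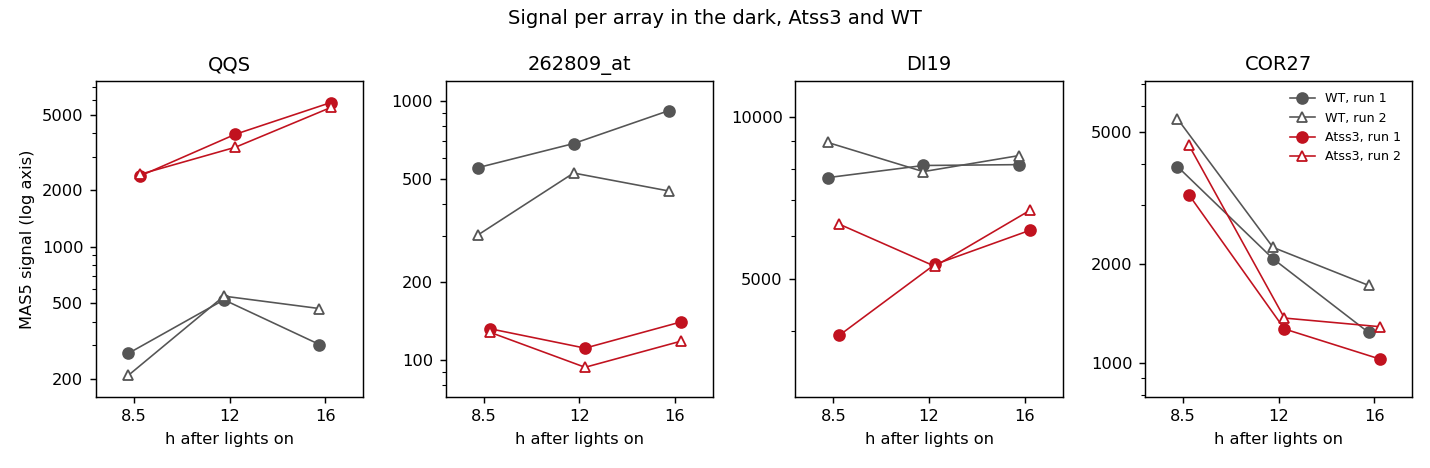
MAS5 signal (log axis) of QQS, 262809_at, DI19 and COR27 on each of the 12 arrays against h after the lights came on. Filled circles are run 1 and open triangles run 2, grey for WT and red for Atss3; the lines join arrays of one genotype and run. QQS, 262809_at and DI19 have no overlap between genotypes, and for COR27 each Atss3 array lies below the WT array of its time and run.

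Among all kept probe sets, 31 (0.225%) had no overlap between the 6 Atss3 and the 6 WT arrays, and 1065 (7.74%) had the same sign in 6 of 6 pairs of arrays of one time and run. The unadjusted p was under 0.05 for 1812 probe sets (13.2%), 976 higher and 836 lower. The genes named next are those with the smallest p among genes with the same sign in all 6 pairs. None of them passed the threshold.

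On the higher side, the smallest p after QQS belonged to AT5G40450. Its signals were 462 to 1410 (median 950) in WT and 892 to 2080 (median 1560) in Atss3. The ranges overlap because the level of both genotypes was lowest at 8.5 h and highest at 12 h, but within each time and run Atss3 was higher, by 0.40 to 1.21. The fitted difference was 0.77 (limma adjusted p 0.103). JAL23, a jacalin-related lectin, had signals of 190 to 633 (median 325) in WT and 287 to 780 (median 528) in Atss3, with a difference of 0.65. It was higher in run 2 than in run 1 in both genotypes at each time, and the pair differences ran from 0.24 to 1.07. NET1D, of a family of actin-binding proteins at plant membranes, had a difference of 0.68, and IQD31, of a family of calmodulin-binding proteins, one of 0.45. AT2G44200 was the gene of this group without overlap between the genotypes, with 132 to 175 in WT and 188 to 295 in Atss3 and a difference of 0.57. The other 4 genes, AT1G52000, AT5G54970, AT1G65010 and AT5G65440, differed by 0.47 to 0.73.

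On the lower side stood DI19, a zinc-finger protein first described as drought-induced. Its signals were 7710 to 8960 (median 8130) in WT and 3930 to 6710 (median 5740) in Atss3. The WT arrays lay close together, and every Atss3 array was below them, by the most at 8.5 h in run 1. The fitted difference was -0.57 (SE 0.112, limma adjusted p 0.198). The chloroplast gene rpl20, for a protein of the plastid ribosome, had signals of 395 to 657 in WT and 210 to 351 in Atss3, again without overlap, and a difference of -0.90 (limma adjusted p 0.198). AT5G38220 also had no overlap, with 302 to 375 in WT and 222 to 285 in Atss3 and a difference of -0.40. The other 7 genes, AT1G08230, AT5G58570, AT2G33250, AT1G76460, AT1G49200, AT1G55270 and AT4G29960, had differences from -0.38 to -0.77 with a limma adjusted p of 0.198.

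**Figure D2:**
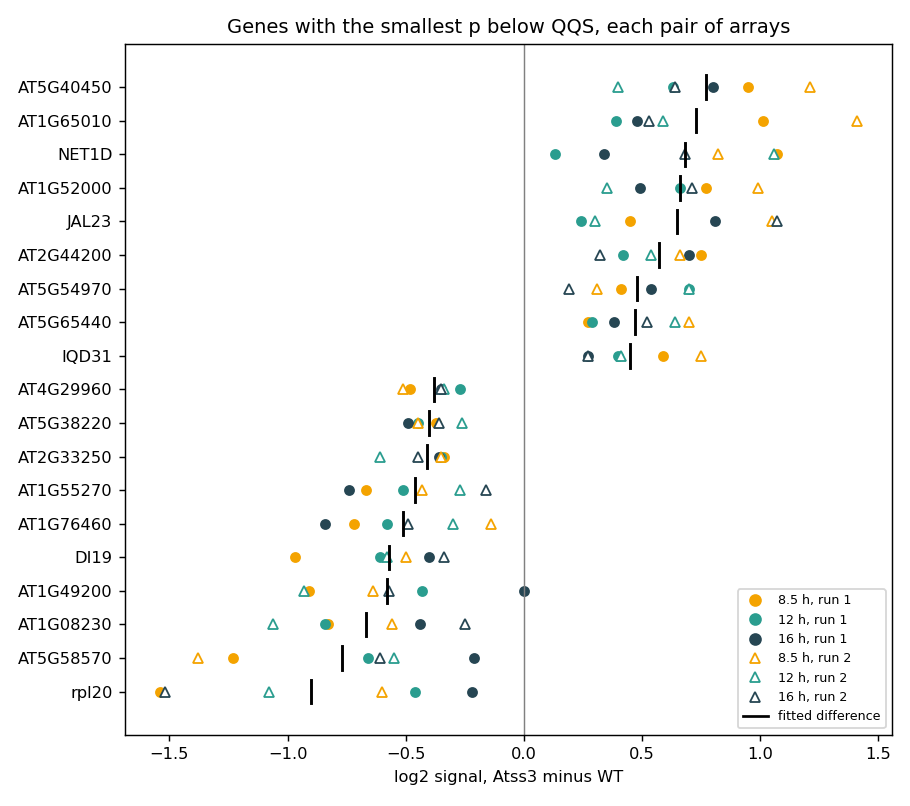
Log2 signal, Atss3 minus WT (x axis), of the 9 higher and 10 lower genes named above, none of which passed the threshold. Each point is a pair of arrays of one time (colour) and run (filled circle for run 1, open triangle for run 2), and the black bar is the fitted difference. For AT5G58570 both 8.5 h pairs lie farthest from 0, at -1.23 and -1.38, and for AT4G29960 the 6 pairs lie between -0.27 and -0.51.

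At each time alone, 1 probe set was called at 8.5 h (0.00727%), 3 at 12 h (0.0218%) and 3 at 16 h (0.0218%). QQS was among them at each time and 262809_at at 12 and 16 h, where it differed by -2.56 and -2.32 (SE 0.242 each, limma adjusted p 0.0112 and 0.0226). The remaining call at 12 h was AT5G19240. At 12 h its signals were 705 and 757 in WT and 1960 and 2610 in Atss3, a difference of 1.63 (SE 0.176, limma adjusted p 0.023). At 8.5 h the same gene had 2300 and 2580 in WT against 2260 and 2110 in Atss3, and at 16 h 1640 and 1530 against 1390 and 1230. The genotypes were thus apart at 12 h, where the WT level was lowest, and close to each other before and after. Leaving out any 1 of 5 arrays ended its call, with an adjusted p of up to 0.253, and without either WT array of 12 h the call of QQS at that time ended as well (limma adjusted p 0.124 and 0.0502). The remaining call at 16 h was AT3G15140, with 19.6 and 15.6 in WT and 74.1 and 66.3 in Atss3. All 4 of those signals lay at or under the 40th percentile of their arrays, and with signals raised to that percentile the difference went from 2.0 to 0.04.

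The test for a genotype difference that changes over the night called no probe set (0%), although 1134 (8.24%) had an unadjusted p under 0.05. The 4 named genes with the smallest p all had a limma adjusted p of 0.156. AT5G19240 was one. AT4G27450 had WT signals of 1180 and 2720 at 8.5 h, 531 and 1690 at 12 h, and 489 and 971 at 16 h. In Atss3 it had 360 and 1200 at 8.5 h, 316 and 552 at 12 h, and 1180 and 2070 at 16 h. The signal went down through the night in WT, while in Atss3 it was highest at 16 h in both runs, so that Atss3 was below WT at 8.5 and 12 h and above it at 16 h. The fitted differences were -1.45, -1.18 and 1.18 (SE 0.252 each). SIS, a gene named for its induction by salt, had the same order, with differences of -1.84, -0.30 and 0.94 (SE 0.25 each), from WT signals of 318 and 813 and Atss3 signals of 72.5 and 277 at 8.5 h. AT1G21550 had -1.67 at 8.5 h and 0.46 and 0.19 later (SE 0.21 each).

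Of 28 listed loci known to respond to carbon starvation, 11 had a kept probe set: 7 genes of the ATG8 family, whose proteins coat the autophagosome; MCCA and MCCB, the subunits of methylcrotonyl-CoA carboxylase, and IVD, isovaleryl-CoA dehydrogenase, which break down leucine; and AKINBETA1, a regulatory subunit of SnRK1. None was called at any time. At 8.5 h, 9 of the 11 were lower in Atss3 in both runs, against 27.9% of all probe sets, and at 12 h 8 of the 11 were, against 32.1%. At 16 h, 9 of the 11 were higher in both runs, against 22.8% of all probe sets, with APG8A and IVD at 0.00 and 0.01 in run 2. The median differences were -0.27, -0.26 and 0.27 at the 3 times, where the medians of all probe sets were 0.03, 0.00 and 0.00.

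AKINBETA1 had differences of -0.98 and -0.51 at 8.5 h in runs 1 and 2, -0.47 and -0.93 at 12 h, and 0.59 and 0.53 at 16 h. MCCA had -0.60 and 0.00, then -0.71 and -0.74, then 0.48 and 0.86. Both genes were thus below WT at 12 h and above it at 16 h in each run. Neither passed the test for a change over the night (limma adjusted p 0.461 and 0.295). ATG8E had 0.99 and 0.25 at 16 h and ATG8H 0.29 and 0.50. In run 2, ATG8G and APG8H were lower in Atss3 at 16 h, by -0.20 and -0.14. With arrays quantile-normalized or centred on their medians, 7 rather than 9 of the 11 were higher at 16 h in run 2, and all 6 pair medians kept their signs.

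Genes of anthocyanin and flavonoid synthesis, which makes purple pigments from phenylalanine, had the largest medians of the lists at 8.5 and 12 h. Of 19 loci, 4 had a kept probe set, and none was called. DFR, dihydroflavonol reductase, had WT signals of 99.1 and 97.9 at 8.5 h, 78.2 and 194 at 12 h, and 436 and 167 at 16 h. In Atss3 it had 266 and 209 at 8.5 h, 260 and 749 at 12 h, and 390 and 299 at 16 h. Atss3 was higher in both runs at 8.5 and 12 h, and at 16 h WT was higher in run 1 and Atss3 in run 2. The difference over the night was 1.15 (SE 0.359, limma adjusted p 0.267). UF3GT, a glycosyltransferase of the anthocyanin pathway, differed by 0.96 (SE 0.421, limma adjusted p 0.366), with pairs of 1.79 and 0.75, then 1.63 and 2.28, then -0.96 and 0.29. AT4G14090 differed by 0.93 and UGT78D2, a flavonoid glucosyltransferase, by 0.15. The list's median was 1.27, 1.70 and -0.25 at the 3 times and -0.05 in the light. With 64 added before log2, the pair medians at 8.5 and 12 h went from 1.61 and 1.48 to 1.21 and 1.04 in run 1. In run 2 they went from 0.86 and 1.87 to 0.52 and 1.53.

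**Figure D3:**
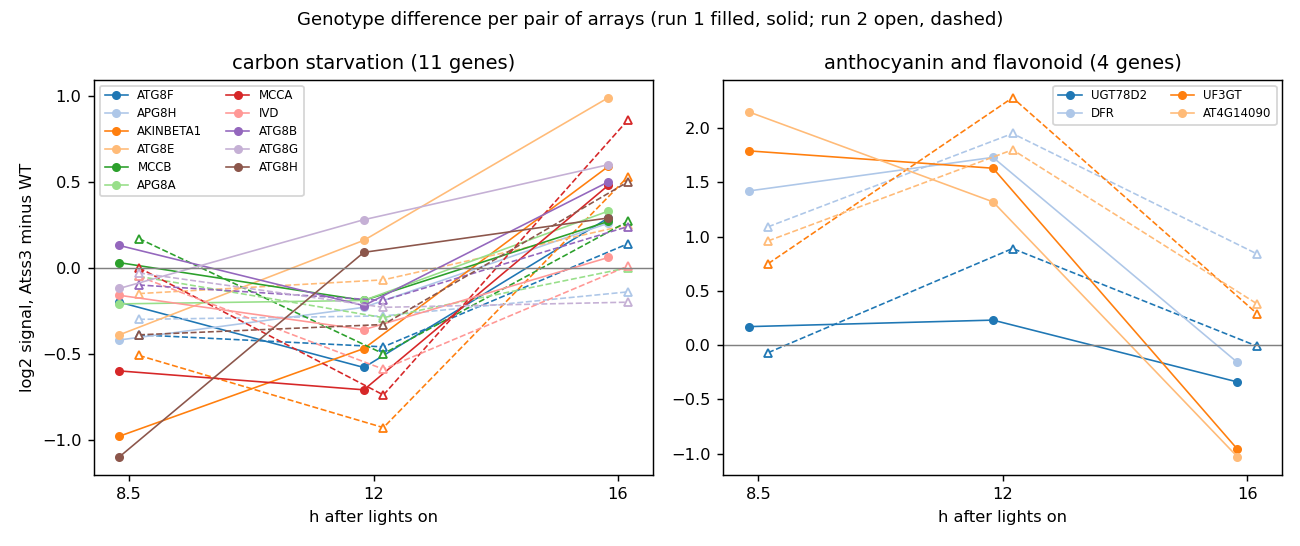
Log2 signal, Atss3 minus WT (y axis), against h after the lights came on for the 11 carbon starvation genes (left) and the 4 anthocyanin and flavonoid genes (right). Each line is a gene in one run, filled and solid for run 1, open and dashed for run 2. Most starvation genes lie below 0 at 8.5 and 12 h and above it at 16 h, and DFR, UF3GT and AT4G14090 lie above 0.7 at 8.5 and 12 h in both runs.

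The runs had most in common at 12 h. There, 69 probe sets (0.501%) were at least 2-fold higher in Atss3 in both runs and 11 (0.0799%) at least 2-fold lower, while 7 were 2-fold apart in opposite directions. At 8.5 h the counts were 28 higher (0.204%) and 18 lower (0.131%), with 13 opposite, and at 16 h 13 higher (0.0945%) and 4 lower (0.0291%), with 38 opposite. Of those that are tied to 1 gene, 36 were higher and 1 lower at 12 h. The genes named here from these counts were chosen after their values were seen, and of those tied to 1 gene QQS and AT5G19240 passed the threshold at 12 h.

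At 12 h, AT1G56060 had the widest difference of these genes, with 163 and 114 in WT and 648 and 4000 in Atss3 (3.56, SE 0.819, limma adjusted p 0.154). AT1G57630 had 170 and 135 in WT and 600 and 2040 in Atss3. Hsp70-2, a heat shock chaperone, had 295 and 351 in WT and 928 and 3160 in Atss3. In each of these the WT arrays of the 2 runs lay close together, and the Atss3 array of run 2 stood well above that of run 1. UGT76B1, a glucosyltransferase of immune signal molecules, had 48.1 and 104 in WT and 182 and 902 in Atss3, and over the night 4 of its 6 WT arrays and 2 of its 6 Atss3 arrays lay at or under the 40th percentile. XTH18, of a family of enzymes that remodel cell wall xyloglucan, had 134 and 67.8 against 302 and 635, with 1 array of each genotype at or under the 40th percentile over the night. SAG101, a lipase-like partner of the immune regulator EDS1, had 146 and 201 against 311 and 517, a difference of 1.23 (SE 0.169, limma adjusted p 0.069). CHIL, a chalcone isomerase-like protein of flavonoid synthesis, had 91.1 and 18.8 against 251 and 225, with 2 of the 6 arrays of each genotype at or under the 40th percentile.

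At 8.5 h, CSLA01, of a family of mannan synthases of the cell wall, had 508 and 412 in WT and 1860 and 1470 in Atss3, and TBL26, of a family of cell wall polysaccharide acetyltransferases, had 2070 and 1590 against 5580 and 3600. Their differences were 1.85 and 1.31 (limma adjusted p 0.197 for both). AFR, an F-box protein of far-red light signalling, had 138 and 103 in WT and 37.4 and 38.5 in Atss3, a difference of -1.65 (SE 0.267, limma adjusted p 0.105). The AFR signals in Atss3 at 8.5 h were dim. At 16 h, AT2G20670 had 222 and 325 in WT and 602 and 807 in Atss3, and ChiC, a chitinase, had 128 and 126 against 281 and 263.

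Of 17 listed loci for starch synthesis 5 were kept, with a median difference of 0.21, and of 25 for starch breakdown 4 were kept, with a median of 0.14; none was called. APL3, which encodes a large subunit of the enzyme that makes ADP-glucose, had 299 to 400 (median 339) in WT and 356 to 596 (median 417) in Atss3. Its difference was 0.35 over the night and 0.87 (SE 0.164, limma adjusted p 0.124) at 8.5 h. AT4G24450, a relative of glucan water dikinase, was higher in 6 of 6 pairs, by 0.49 (SE 0.157, limma adjusted p 0.272), whereas PWD (AT5G26570), phosphoglucan water dikinase, and DPE1, which disproportionates maltotriose, both had 0.00. AMY1, an alpha-amylase, had 0.29 over the night, with pair differences from -0.54 to 1.79. The 9 kept genes of sucrose metabolism and transport, of 24, had a median of -0.09, and the sugar transporter gene SWEET1 had the smallest p of them, with -0.19.

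Among the cold and abscisic acid genes, 8 of 19 were kept, with a median of -0.34, and none was called. DI19 is one of them. COR27, a cold- and clock-regulated gene, had WT signals of 3930 and 5480 at 8.5 h, 2070 and 2240 at 12 h, and 1240 and 1720 at 16 h. In Atss3 it had 3230 and 4560, then 1270 and 1370, then 1030 and 1290. The signal went down in both genotypes through the night, and Atss3 was lower in 6 of 6 pairs, by -0.44 (SE 0.104, limma adjusted p 0.201). XERICO, a RING-type protein that promotes abscisic acid accumulation, was also lower in 6 of 6 pairs, by -0.39. Its 8.5 h pair of run 1 stood at -1.19 and the other pairs at -0.45 to -0.05. COR15B, a chloroplast cold-acclimation protein, stood on the other side at 0.14, and LTI30, a dehydrin, went in opposite directions in the runs at 12 and 16 h. COR27 also stands in the clock list, of which 3 of 24 loci were kept, with a median of -0.24.

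Nuclear genes of photosynthesis had medians near 0. The 4 kept genes of light harvesting and the photosystems, of 33, had -0.02, and the 3 of the Calvin cycle, of 19, had 0.07. RCA, rubisco activase, had signals of 15300 to 19100 in WT and 14900 to 21100 in Atss3 and a difference of 0.07. LHCB4.3, an antenna protein of photosystem II, was lower in 6 of 6 pairs, by -0.54 (SE 0.147, limma adjusted p 0.239). For defence and salicylic acid 2 of 19 were kept, SAG101 at 0.56 and WRKY53, a transcription factor of senescence, at -0.11, and none of the 11 heat shock loci was kept.

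Between the runs, the genotype differences over all 13759 probe sets correlated weakly: Pearson's r was 0.162 and Spearman's rho 0.193 across probe sets, which are not independent and share arrays. The sign was the same for 7793 (56.6%). In run 1, 1690 probe sets (12.3%) had an unadjusted p under 0.05. Of these, 1008 (59.6%) had the same sign in run 2, and 163 (9.64% of them, 1.18% of all) had the same sign and an unadjusted p under 0.05 there. Among all probe sets, 871 (6.33%) had an unadjusted p under 0.05 in run 2 with the sign of run 1. Another 72 (0.523% of all) had an unadjusted p under 0.05 in both runs with opposite signs. By time, r between the runs was 0.30 at 8.5 h, 0.39 at 12 h and -0.11 at 16 h. In a fit of both runs that shares one variance, 12 probe sets were called within run 1 (0.0872%) and 2 within run 2 (0.0145%), QQS and 262809_at. With each run fitted alone the counts were 3 and 0, and in run 2 alone the limma adjusted p was 0.112 for QQS and 0.374 for 262809_at. Leaving out probe sets named as plastid or mitochondrial genes, an alternative chosen after seeing the data, gave r of 0.211. Probe sets without a gene name stayed in, whichever genome they read. Of the 73 probe sets at least 2-fold apart in run 1, 32 had the same sign in run 2. Without the named organelle genes 31 of 44 did (70.5%).

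**Figure D4:**
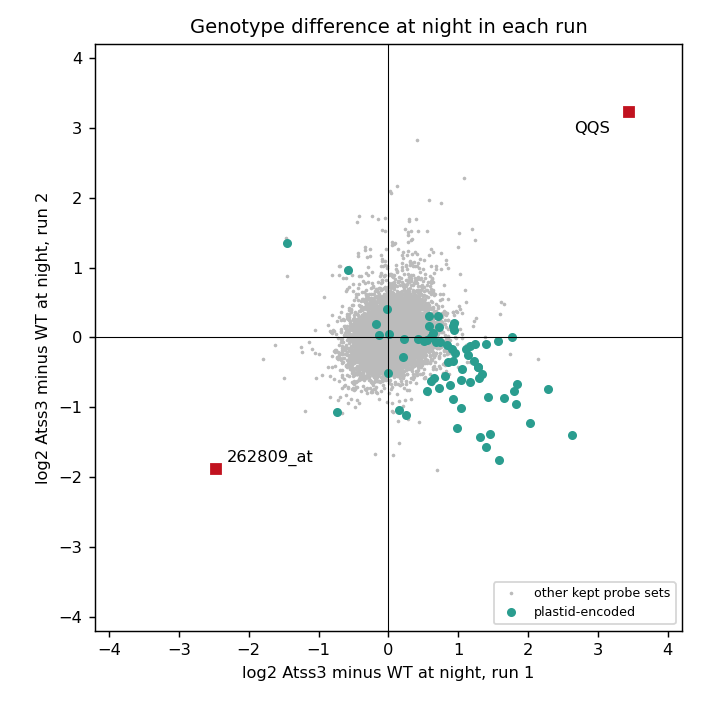
Fitted log2 difference, Atss3 minus WT, over the 3 night times in run 1 (x axis) and in run 2 (y axis), 1 point per kept probe set. QQS and 262809_at (red squares) lie far from the rest in opposite corners, and most plastid-encoded genes (green) lie to the right of 0 and at or below it.

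The test for a genotype by run difference called 6 probe sets (0.0436%), while 1094 (7.95%) had an unadjusted p under 0.05. Of the 6 called, 4 were plastid genes. These were ndhK and ndhD, subunits of the chloroplast NADH dehydrogenase-like complex, and rpl16 and rpl36, of the plastid ribosome. The rpl16 signal was 977, 1650 and 1830 in WT in run 1 at 8.5, 12 and 16 h and 8430, 8260 and 9140 in WT in run 2. In Atss3 it was 7300, 5710 and 8130 in run 1 and 6310, 5650 and 3840 in run 2. The WT arrays of run 1 stood apart, below all other arrays. For rpl36 they stood apart on the other side, at 3250, 3610 and 3440, with 349, 424 and 359 in WT in run 2 and 679 to 1760 in Atss3. For ndhK, WT had 510 to 633 in run 1 and 3440 to 3860 in run 2, and the 6 Atss3 arrays lay between them, at 1020 to 1910. The difference in run 2 minus that in run 1 was -3.02 (SE 0.37) for rpl16, 2.81 (SE 0.38) for rpl36, -2.84 (SE 0.289) for ndhK and -2.53 (SE 0.316) for ndhD (limma adjusted p 0.0299, 0.0489, 0.0174 and 0.0299). All 4 calls ended with no filter on low signals (limma adjusted p 0.279 for ndhK and 0.395 for the others). Of the 12 arrays left out in turn, 8 ended the call for ndhK, and 10 each did for rpl16, rpl36 and ndhD. Quantile normalization also ended that of rpl36 (limma adjusted p 0.0605).

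Over the 67 kept plastid-encoded genes, of 69 measured, the median difference was 0.92 in run 1 and -0.34 in run 2. Of the 67, 60 lay above 0 in run 1 and 16 in run 2, where 51.6% and 51.5% of all probe sets did. The pair medians were 1.19, 0.55 and 0.94 at 8.5, 12 and 16 h in run 1 and -0.04, -0.23 and -0.73 in run 2. Each functional group had a median above 0 in run 1 and below 0 in run 2. The 22 photosystem genes had 0.94 and -0.28, and the 9 genes of the NDH complex 0.93 and -0.87. The 12 of the cytochrome b6f complex and ATP synthase had 0.63 and -0.57. The 18 of the ribosome and RNA polymerase had 0.89 and -0.08, with 8 of the 18 above 0 in run 2. At 8.5 h in run 2, the pair medians of this last group and of the photosystem genes were 0.45 and 0.03. The 8 mitochondrion-encoded genes had medians of 0.18 and -0.06. Over both runs no organelle gene was called.

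The ratio of the 3' to the 5' signal of the GAPDH control, which reflects how intact the RNA was and how far its copying reached, also set the WT arrays of run 1 apart. On the log2 scale it was -0.084 ± 0.121 in WT in run 1, 0.272 ± 0.111 in WT in run 2, 0.363 ± 0.021 in Atss3 in run 1 and 0.422 ± 0.266 in Atss3 in run 2 (SD, n = 3 each). The mean difference between genotypes was 0.298 (two-sided exact permutation p 0.0625, where the smallest possible was 0.0312), and the actin ratio differed by 0.067 (exact permutation p 0.781). The log2 actin ratio did not set the WT arrays of run 1 apart. It was 3.013, 3.43 and 2.791 on them and 2.113 to 3.425 on the other arrays. The part of RNA quality in the plastid gene values was not tested. With the GAPDH ratio as a covariate, QQS and 262809_at stayed past the threshold.

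**Figure D5:**
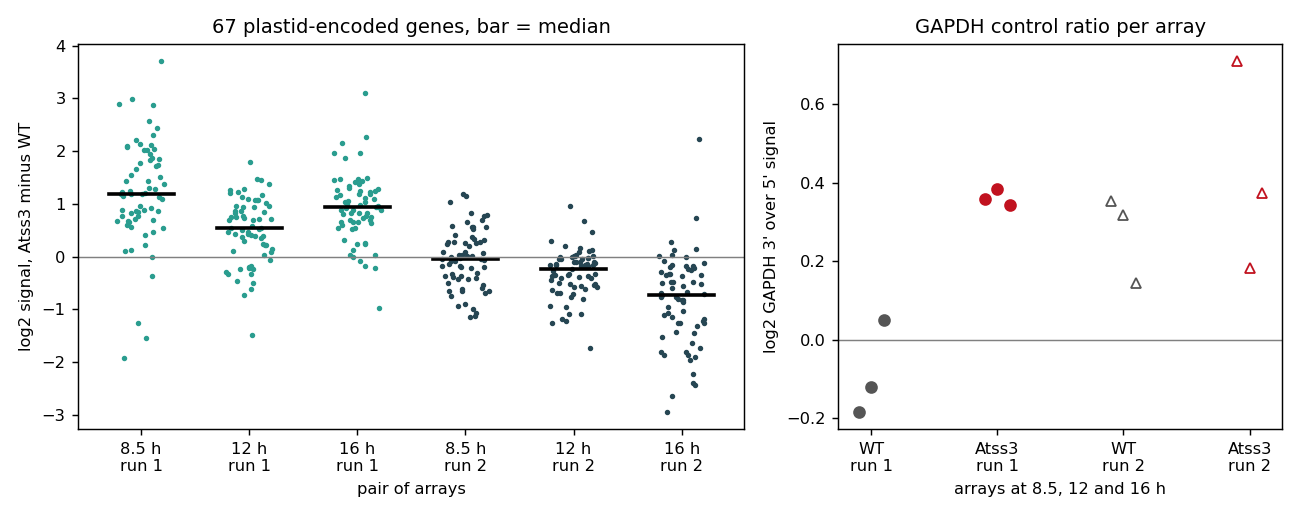
Left, log2 signal, Atss3 minus WT (y axis), of the 67 kept plastid-encoded genes in each pair of arrays; each point is a gene and the bar the median, which lies above 0 in the 3 pairs of run 1 and below 0 in those of run 2. Right, log2 of the 3' over the 5' GAPDH signal on each of the 12 arrays, grey for WT and red for Atss3, filled for run 1 and open for run 2; the 3 WT arrays of run 1 are the lowest.

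Set against the 8 arrays of the light (1 and 4 h), no probe set had a night difference that departed from the light difference past the threshold (0%; 821, or 5.97%, had an unadjusted p under 0.05). QQS was apart in the light as well, by 3.79, and 262809_at by -2.47, and the night minus light values of -0.46 (SE 0.294) and 0.29 (SE 0.218) did not pass the threshold (limma adjusted p 0.866 and 0.884). The smallest p belonged to AT1G72060, with -1.40 (SE 0.24), and AT3G19330, with 1.45 (SE 0.256), both at a limma adjusted p of 0.238. DFR was -0.11 in the light and 1.15 at night (1.25, SE 0.493, limma adjusted p 0.811). Its signals in the light were 63.4 to 247, the lowest of them at 1 h.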

How the data were processed

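Total RNA of 12 pooled leaf samples was measured on 1-colour arrays. The deposited values are linear signal intensities, computed by the authors with MAS5, per the submitters' processing notes, which name no version. After trimming 2% of the deposited intensities at each end, every array had a mean of 500.0, so the authors' scaling was kept; a shift in total RNA is invisible on it. Of 22810 probe sets, 64 controls were left out. Values under 1 (116 to 244 per array) were raised to 1 before log2.

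Linear models with empirical Bayes moderation (limma 3.58.1, R 4.3.3) held genotype, time and run for the night effect (7 residual degrees of freedom), a mean for each genotype and time with run as a block for single times, and a genotype effect in each run for the comparison of runs. The run block comes from the labels, and in 15 of 15 pairs of groups the same-run deviations from the means correlated at over 0.1 (0.15 to 0.53). Gene names came from the platform annotation, in which 13513 probe sets have 1 gene, 503 several, and 8730 are not listed; 13436 matched the gene table of TAIR10.1. Where a listed gene had several probe sets, the brightest was used. In data simulated from the night fit over 13759 probe sets, 200 probe sets were changed. Of changes of 1 log2 unit 89% were recovered, and of those of 2 units 100%, with 14 false calls each. The adjusted p depends on how many probe sets are changed. These shares therefore do not carry over to the night comparison, which had 2 calls.

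The members, the 11 gene lists (238 entries, 58 with a named probe set, 53 kept) and the tests were chosen with earlier results of these data known. Named genes were QQS and SS3; up to 10 per direction past the threshold with 1 gene, filled by the smallest p among genes with the same sign in 6 of 6 pairs and above the 40th percentile on all arrays of a genotype; calls at each time; the 4 smallest p of each difference test; and 2 per list. Alternatives were 2 other scalings, 2 other filters, 2 treatments of low signals, no run block, a trended variance, other sets of arrays, the GAPDH ratio as covariate, and leaving out each array. Figures used matplotlib 3.10.9, numpy 2.4.6 and Python 3.11.15.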

Additional observations from a re-analysis of the deposited data

Results flagged for a closer look

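For 6 probe sets the genotype difference at night departed between the runs by the test of that difference. In run 2 minus run 1, the values were -2.84 for ndhK, -3.02 for rpl16, -2.53 for ndhD and 2.81 for rpl36, all plastid-encoded. They were -1.78 for 256438_s_at, which is tied to several genes, and 2.89 for 244979_at, which has no gene name here. In none of the 32 named probe sets checked did 1 of the 6 pair differences stand apart from the others. XERICO, with its pair of -1.19, was not among those checked.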

How the results depend on the processing

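QQS kept its direction at night in each of 29 alternatives, at 3.05 to 3.62, and lost its call in 1, run 2 alone (limma adjusted p 0.112); 262809_at had -2.47 to -1.73 and lost its call in the same one (limma adjusted p 0.374). AT5G40450 gained a call with 64 added before log2 and with a trended variance (limma adjusted p 0.0325 and 0.0388). The count at night was 0 in run 2 alone and 2 to 3 with each array left out in turn. At 8.5 h it was 3 with quantile normalization, 2 with centred arrays, 3 with raised signals, 0 with no filter and 1 to 13 with an array left out, the 13 without WT 8.5 h replicate 2. At 12 h it was 0 with no filter and 0 to 45 with an array left out: 45 without Atss3 12 h replicate 1, and 0 without either WT array of 12 h. At 16 h it was 1 with no filter and 1 to 4 with an array left out. For genotype by time it was 1 with raised signals and 0 to 3 with an array left out. For genotype by run it was 0 with no filter, 0 to 10 with an array left out, and 0 without both run 1 arrays of 16 h, an alternative chosen after seeing the data. Night minus light gave 0 in each alternative. With no replicate block the counts were 2 at night, 1 at 8.5 h, 2 at 12 h, 2 at 16 h, and 0 for genotype by time and for night minus light. The cause of these changes was not tested. Without a filter more probe sets are adjusted for, and with an array left out fewer samples enter. The 40th percentile was a chosen cut, and whether signals at or under it can be ordered was not tested. Differences that rest on such signals are uncertain.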
